A study of Homo sapiens with 3 samples.

Results

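Heat shock proteins and their cochaperones, the machinery that folds other proteins, were followed in A375SM cells, a human melanoma line selected for metastasis from A375. Members were the rows of the count table whose symbols name HSPA, HSPB, HSP90AA1, HSP90AB1, HSPH1, HSPD1, HSPE1, DNAJA, DNAJB, DNAJC and CCT genes, and HSPA5 and DNAJB9 were left out. This gave 74 of the 24424 listed genes. A375SM cells had been infected with lentiviral vectors that also encode green fluorescent protein, and fluorescent cells were kept as stable populations that carried a short hairpin RNA. The shPRAME cells had lowered PRAME, an antigen of testis and melanoma, the shBAP1 cells lowered BAP1, and shEmpty was the control, all grown in DMEM with serum. BAP1 is a nuclear deubiquitinase that acts on histone H2A. The control is named an empty vector, described as a non-targeting hairpin and given the genotype WT, so what it carried is uncertain. Each population gave 1 messenger RNA library, and no second hairpin or clone is named.

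Chaperones work as a relay. DNAJ proteins carry unfolded clients to the Hsp70 proteins of the HSPA family and start their ATP cycle, Hsp110 proteins (HSPA4, HSPA4L and HSPH1) release the nucleotide, and many kinases and receptors then pass to Hsp90. Mutated BRAF, the oncogene of many melanomas, is a known Hsp90 client. Small heat shock proteins (HSPB) hold unfolded clients without ATP. HSPD1 and HSPE1 form the folding chamber of the mitochondrial matrix, and the CCT subunits form the cytosolic chamber TRiC, which folds actin and tubulin. The transcription factor HSF1 raises many of these genes under stress.

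The libraries held 19430130 (shEmpty), 14181829 (shBAP1) and 18456328 (shPRAME) counts. Levels are given as CPM, counts scaled to a common library size with TMM factors. The 11956 genes whose counts averaged 50 or more count as measured. Higher and lower are used for ratios of 2-fold or more, a log2 ratio past 1 in size, whose exact 95% interval did not hold equality. With 1 library per group no p-value was computed, and calls and intervals compare these libraries and cover counting error only. PRAME was at 327 CPM in shEmpty, 455 in shBAP1 and 108 in shPRAME, and BAP1 at 100.0, 35.2 and 97.9 CPM in the same order. The melanocyte regulators SOX10 (506, 367 and 657 CPM) and MITF (310, 239 and 114 CPM) were present, whereas the melanocyte markers PMEL and MLANA stayed at or under 2.29 CPM in each library. The pigment genes TYR (4, 573 and 0 counts) and TYRP1 (0, 1037 and 1 counts) passed 4 counts in shBAP1 alone. The pigment gene DCT was also present in the control, with 192 counts in shEmpty, 1668 in shBAP1 and 6 in shPRAME. S100B, the last gene of that list, was at 72.4, 186.5 and 43.2 CPM. Of the other cell types' markers, CDH5, CD3E and KRT1 had no count in any library, and the summed levels of the fibroblast (34.6 to 51.1 CPM), keratinocyte (27.4 to 53.7 CPM), immune (51.4 to 150.1 CPM) and endothelial lists (11.7 to 79.1 CPM) rested mostly on LUM and PDGFRA, KRT10, CD68 and KDR. In such bulk libraries fewer cells of a type and less RNA per cell cannot be told apart.

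Chaperone messages made up a smaller part of the shPRAME library than of the other libraries. All 74 members together took 1.67% of the counts in shEmpty (exact 95% binomial interval 1.67% to 1.68%), 1.62% in shBAP1 (1.62% to 1.63%) and 1.15% in shPRAME (1.14% to 1.15%). HSP90AA1, HSP90AB1, HSPA8 and HSPD1 supplied 160037 of the 324966 member counts in shEmpty. Without these 4 genes the share was 0.849%, 0.798% and 0.622%, so the shPRAME library was lowest with and without the most abundant members. By class, the summed level of HSPD1 and HSPE1 was 1317 CPM in shEmpty, 1314 in shBAP1 and 538 in shPRAME. The HSPA genes summed to 3358, 2931 and 1699 CPM, the CCT subunits to 3915, 3248 and 2421 CPM, and the HSP90 genes to 4987, 4509 and 3743 CPM. The sum of the small heat shock proteins stood the other way, at 281 CPM in shEmpty, 198 in shBAP1 and 433 in shPRAME. HSPB1 supplied most of it, at 246, 151 and 392 CPM. HSPB8 was above the control in both hairpin libraries, and HSPB11 was lowest in shPRAME (30.1, 19.7 and 15.4 CPM). Among the cochaperones the sums lay closer together, at 1609, 1589 and 1389 CPM for DNAJC and 586, 558 and 505 CPM for DNAJB.

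**Figure D1:**
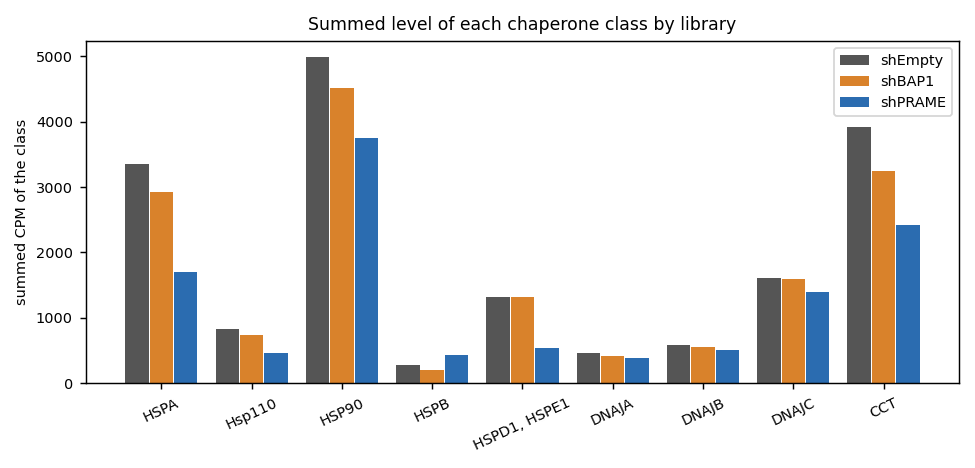
Summed CPM (y axis) of each chaperone class (x axis) in the shEmpty, shBAP1 and shPRAME libraries, 1 bar per library. The shPRAME bar is the lowest in every class except HSPB, where it is the highest at 433 CPM. HSPB1 alone supplies 392 CPM of that bar.

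Of the 74 members 61 were measured. In shPRAME against shEmpty 6 were higher and 5 lower, or 18.0% of the measured members beside 19.3% of all measured genes (10.2% higher and 9.09% lower), so calls were about as frequent among chaperones as elsewhere. Higher were HSPB8, DNAJC12, DNAJC22, DNAJB5, DNAJC18 and DNAJC1, and lower were DNAJC9, HSPE1, HSPD1, HSPA8 and HSPA4L. DNAJC12 and DNAJC22 reached the count minimum only through the hairpin libraries, so they had to differ from the control. The median log2 ratio of the members was -0.43, beside -0.06 for all measured genes. Ratios under the 2-fold limit made up most of that shift. With a limit of 1.5-fold 23 members were lower (37.7%, beside 21.6% of all measured genes) and 12 higher (19.7%, beside 19.4%). Among genes averaging 2000 counts or more, a limit chosen after seeing the data, 13 of 24 members were lower by 1.5-fold (54.2%, beside 26.5%), and the median was -0.67 beside -0.20.

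In shBAP1 against shEmpty 4 members were higher and 0 lower, or 6.56% beside 14.1% of all measured genes (5.53% higher and 8.57% lower). The 4 were HSPB8, DNAJC22, DNAJC12 and DNAJC1. Here too DNAJC22 and DNAJC12 had reached the count minimum only through the hairpin libraries. The median log2 ratio of the members was -0.08, beside -0.03 for all genes. It turned to 0.037 with scaling by total count, which moved the median of all genes by 0.12. Both comparisons use the same shEmpty library, so their values are given side by side and no overlap is read from them. In the direct comparison of shPRAME with shBAP1, 6 members were higher and 6 lower (19.7%, beside 25.1% of all measured genes, 14.2% higher and 10.9% lower). Scaling by total count gave 4 higher and 9 lower there. Higher were HSPA12A, DNAJC18, HSPB1, DNAJC4, HSPA6 and DNAJB5, and lower were HSPD1, HSPA4L, HSPE1, DNAJC15, DNAJC25 and HSPA8.

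**Figure D2:**
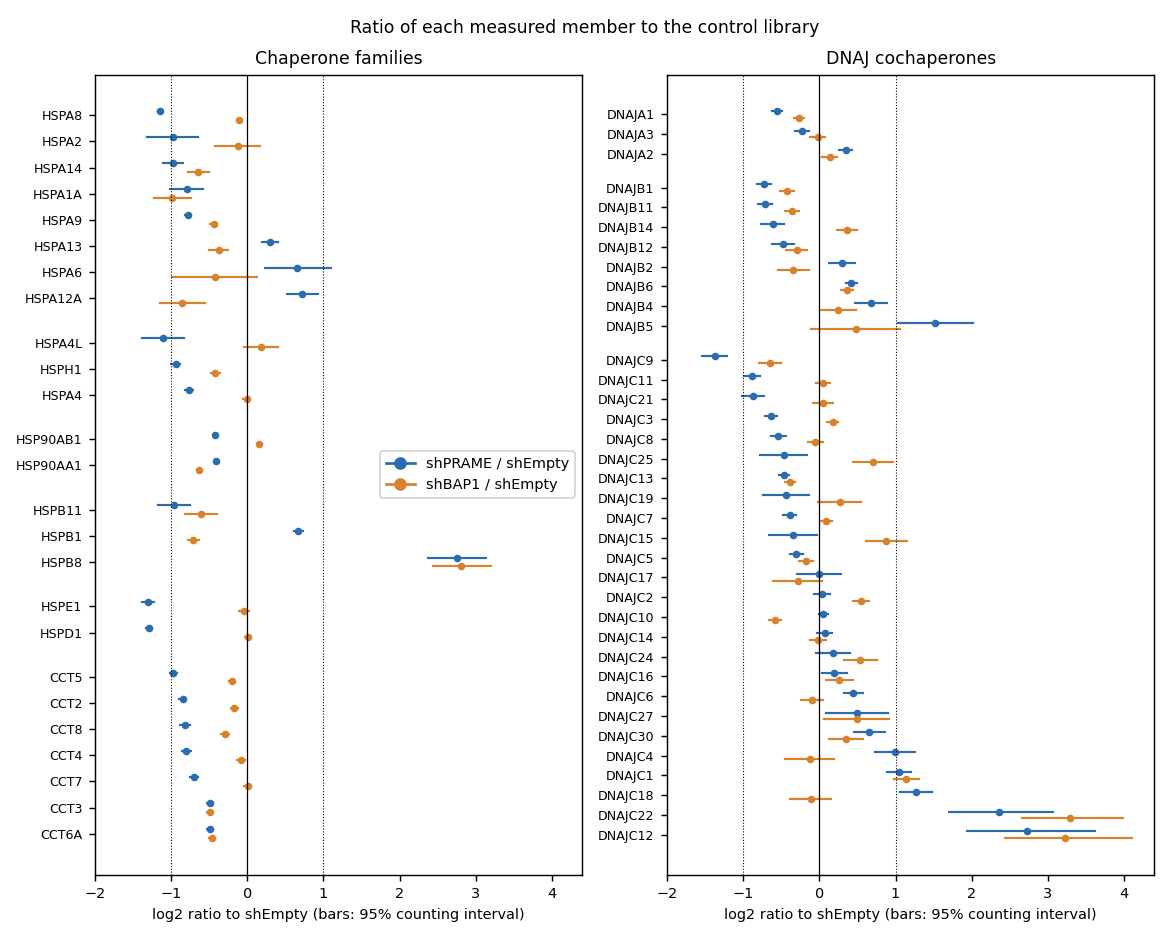
Log2 ratio to shEmpty (x axis) of each of the 61 measured members by class, with points for shPRAME and shBAP1 and bars for the exact 95% counting interval; dotted lines mark the 2-fold limit. In shPRAME all HSPD1, HSPE1, Hsp110, HSP90 and CCT points lie left of 0, while the DNAJ points lie on both sides.

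The families and the DNAJ cochaperones were spread differently, a grouping chosen after seeing the data. Of the 25 measured members outside the DNAJ families 20 had a log2 ratio below 0 in shPRAME, as did 53.6% of all measured genes, and the median of the 25 was -0.79. The 36 measured DNAJ members had 18 below and 18 above 0, with a median of 0.01. In shBAP1 20 of the 25 and 16 of the 36 also lay below 0, beside 52.5% of all measured genes. The medians there were -0.29 and 0.07. With scaling by total count CCT4, HSPA4, HSPA8 and HSPE1 turned to ratios above 0 in shBAP1. The members outside DNAJ are also the more abundant ones, and all genes averaging 2000 counts or more had a median of -0.20 in shPRAME and -0.11 in shBAP1. How far abundance enters the difference between the groups was not tested.

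**Figure D3:**
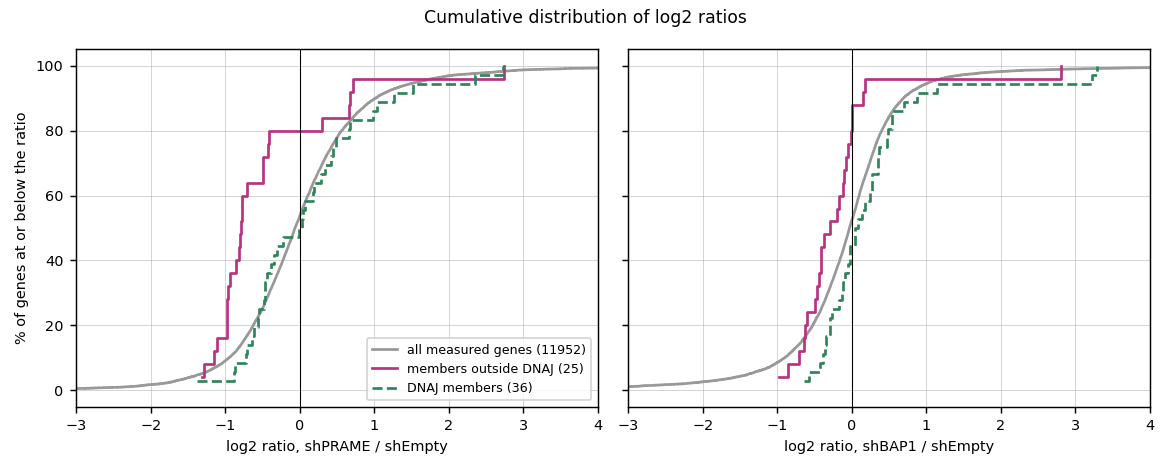
Percent of genes (y axis) at or below each log2 ratio (x axis) for shPRAME (left) and shBAP1 (right) against shEmpty, with 1 line each for all measured genes that have a ratio, the 25 members outside DNAJ and the 36 DNAJ members. In shPRAME 20 of the 25 members outside DNAJ lie left of 0, beside 18 of the 36 DNAJ members. In shBAP1 20 of the 25 and 16 of the 36 do.

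HSPA8, the constitutive cytosolic Hsp70 (Hsc70), was second only to HSP90AB1 among the members in counts in the control library. Its counts were 46328 in shEmpty, 34027 in shBAP1 and 20346 in shPRAME, or 2473, 2292 and 1113 CPM. The shPRAME library stood apart, 2.22-fold lower than shEmpty (2.19 to 2.26) and 2.06-fold lower than shBAP1 (2.02 to 2.10). The shBAP1 level was at a log2 ratio of -0.11 to shEmpty, a sign that turned with scaling by total count. HSPA9 (mortalin), the Hsp70 of the mitochondrial matrix, was at 675, 497 and 394 CPM, with log2 ratios of -0.44 in shBAP1 and -0.78 in shPRAME. HSPA14, an Hsp70 of the ribosome, was at 72.2, 46.3 and 36.8 CPM, and its shPRAME level lay just inside the limit at a log2 ratio of -0.97. Its ribosomal partner DNAJC2 did not follow it, with 74.3 CPM in shEmpty, 108 in shBAP1 and 76.0 in shPRAME.

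The stress-inducible Hsp70 genes were scarce. HSPA1A had 497 counts in shEmpty, 199 in shBAP1 and 280 in shPRAME, or 26.5, 13.4 and 15.3 CPM. Both hairpin libraries were below the control, with log2 ratios of -0.98 (shBAP1) and -0.79 (shPRAME) that did not pass the 2-fold limit. Its near-identical copy HSPA1B, outside the rule, had 439, 227 and 293 counts, and reads of the pair may have been split between them. HSPA6, which is almost silent without stress, had 76, 45 and 117 counts and was 2.11-fold higher in shPRAME than in shBAP1 (1.49 to 3.05), a call that ended with scaling by total count. HSPA1L, a testis relative of HSPA1A below the count minimum, had 29, 5 and 47 counts. The HSPA6 pseudogene HSPA7, below the count minimum, had 5, 0 and 40 counts and may share reads with HSPA6. HSPA12A, a distant Hsp70 relative, was at 17.0 CPM in shEmpty, 9.43 in shBAP1 and 28.1 in shPRAME. The hairpin libraries lay on opposite sides of the control and differed 2.98-fold from each other (2.46 to 3.61). HSPA2, known from sperm development, was at 12.2, 11.2 and 6.18 CPM, and HSPA13, an Hsp70 of the secretory pathway, at 76.3, 58.8 and 93.9 CPM.

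All 3 Hsp110 genes had log2 ratios between -1.11 and -0.77 in shPRAME. HSPA4L was at 19.2 CPM in shEmpty, 21.8 in shBAP1 and 8.92 in shPRAME. It was 2.16-fold lower in shPRAME than in shEmpty (1.79 to 2.61) and 2.44-fold lower than in shBAP1. HSPH1, the stress-inducible Hsp110, was at 373, 279 and 194 CPM, with a log2 ratio of -0.94 in shPRAME and -0.42 in shBAP1. HSPA4 was at 440.1, 437 and 258 CPM, so its shPRAME library alone stood off, at a log2 ratio of -0.77.

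The HSP90 genes differed from each other in shBAP1. HSP90AA1, the stress-inducible isoform, was at 2238 CPM in shEmpty, 1448 in shBAP1 and 1690 in shPRAME. HSP90AB1, the constitutive isoform, was at 2749, 3061 and 2054 CPM, highest in the library where HSP90AA1 was lowest. The ratio of HSP90AA1 to HSP90AB1 counts within a library, which no scaling can change, was 0.814 in shEmpty (0.804 to 0.825), 0.823 in shPRAME (0.811 to 0.835) and 0.473 in shBAP1 (0.465 to 0.481). Neither gene passed the 2-fold limit, with log2 ratios of -0.41 and -0.42 in shPRAME and of -0.63 and 0.16 in shBAP1. Per kilobase of exon (lengths from GENCODE release 29), HSP90AB1 led in each library, at 922.5 CPM per kilobase in shEmpty, 1027 in shBAP1 and 689 in shPRAME. In shEmpty HSPA8 followed at 916 CPM per kilobase, and the counting intervals of the leading pair overlapped. In shPRAME HSP90AA1 (420 CPM per kilobase) and HSPA8 (412) followed, again with overlapping intervals, and then HSPB1 (370.0), which had been at position 7 in shEmpty.

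**Figure D4:**
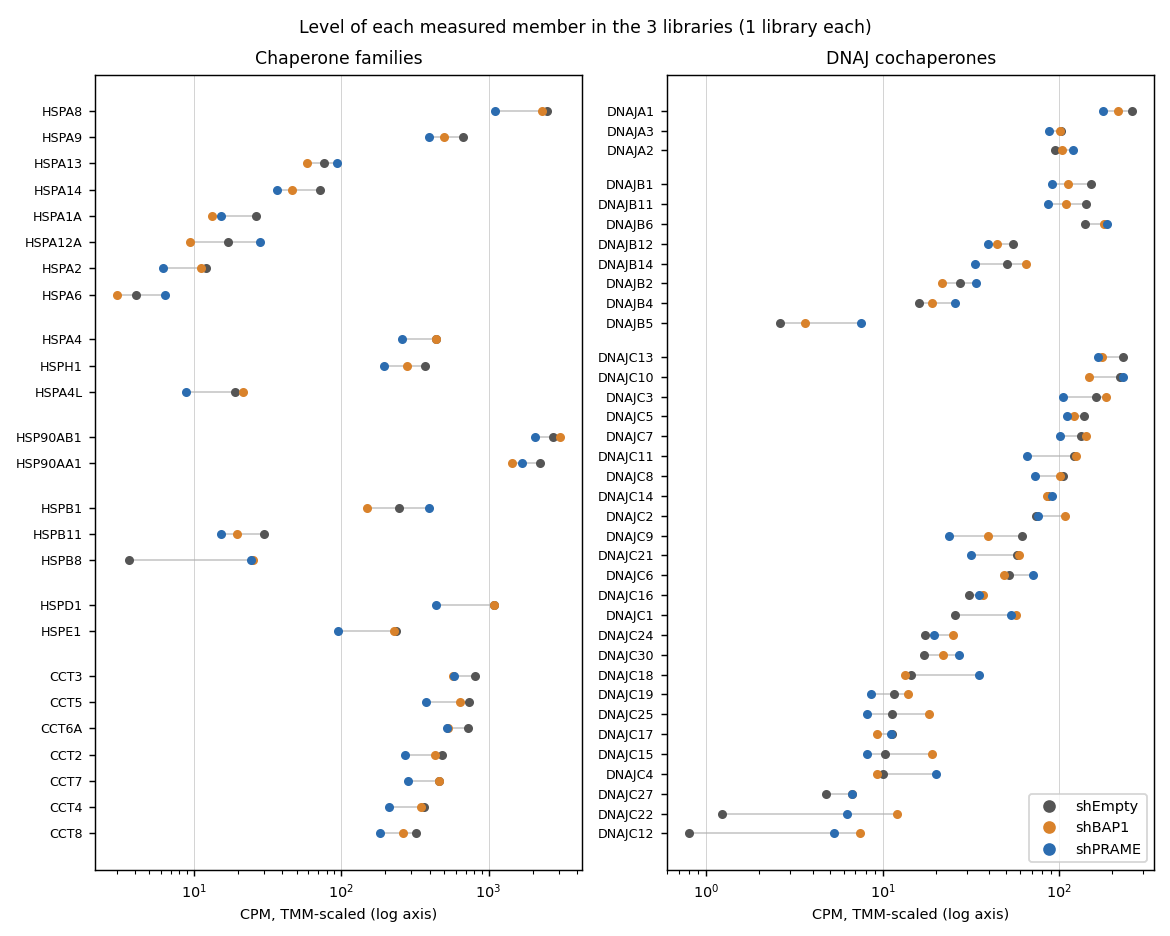
CPM on a log axis (x) of each measured member in shEmpty, shBAP1 and shPRAME, 1 point per library, with the families on the left and the DNAJ genes on the right. HSPB8, DNAJC12 and DNAJC22 have the control point far left of both hairpin libraries, and HSPA8, HSPD1 and HSPE1 have the shPRAME point left of the other libraries. DNAJC12 and DNAJC22 reached the count minimum only through the hairpin libraries.

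Both genes of the mitochondrial chaperonin were lower in shPRAME. HSPD1 (Hsp60) had 20271 counts in shEmpty, 16125 in shBAP1 and 8098 in shPRAME, or 1082, 1086 and 443 CPM. HSPE1 (Hsp10), the lid of the chamber, had 4410, 3379 and 1739 counts, or 235, 228 and 95.1 CPM. The shBAP1 intervals of both held equality with shEmpty, while shPRAME was low, where HSPD1 was 2.44-fold lower (2.38 to 2.51) and HSPE1 2.48-fold lower (2.34 to 2.62) than in shEmpty. The number of HSPD1 counts per HSPE1 count was 4.60 in shEmpty (4.45 to 4.75), 4.77 in shBAP1 (4.60 to 4.95) and 4.66 in shPRAME (4.42 to 4.91), with overlapping intervals. The genes lie head to head on chromosome 2, and their outermost RefSeq starts (GRCh38.p14) are 105 bases apart. The ratio of HSPD1 to HSPA9 was not held in this way, with 1.60 HSPD1 counts per HSPA9 count in shEmpty, 2.19 in shBAP1 and 1.12 in shPRAME.

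The mitochondrial list held 7 members, all with log2 ratios below 0 in shPRAME. HSPD1 and HSPE1 were lower by 2-fold (9.09% of all measured genes were lower) and the other 5 passed in neither direction. The median of all 7 was -0.78, beside 0.01 in shBAP1. DNAJC30, a mitochondrial J protein that the list does not hold, was at 17.2, 21.9 and 27.1 CPM, with a log2 ratio of 0.66 in shPRAME. DNAJC11, a partner of the cristae-organising complex, was at 121 CPM in shEmpty, 125 in shBAP1 and 65.7 in shPRAME, and DNAJA3 (Tid1), the J protein of HSPA9, at 102, 101 and 87.2 CPM. DNAJC19, a J protein of the import motor, was at 11.5, 13.9 and 8.53 CPM. DNAJC15, its inner-membrane relative, was at 10.4, 19.0 and 8.15 CPM, and its shPRAME level was 2.33-fold lower than that of shBAP1 (1.91 to 2.86). GRPEL1, the nucleotide exchange factor of HSPA9 and no member, stood at 84.4, 73.4 and 46.2 CPM.

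The 7 CCT subunits each had a log2 ratio below 0 in shPRAME, from -0.97 to -0.49 with a median of -0.80, and 0 of 7 passed the 2-fold limit. The intervals of all 7 lay below no change, as did those of 43.1% of all measured genes. Counting intervals narrow with depth, and all 7 averaged over 2000 counts. Among genes averaging 2000 counts or more, 1236 of 2087 had such an interval. CCT5 was at 733 CPM in shEmpty, 636 in shBAP1 and 374 in shPRAME, and CCT2 at 487, 432 and 270 CPM, with shPRAME the lowest library for both. CCT3 was at 815, 578 and 579 CPM and CCT6A at 731, 529 and 521 CPM, so these subunits were level between the hairpin libraries. The direct log2 ratio of shPRAME to shBAP1 was 0.00 for CCT3 and -0.02 for CCT6A, signs that turned with the scaling, and from -0.77 to -0.52 for the other 5. The eighth subunit TCP1, which the symbol rule does not reach, was at 395.5, 438 and 248 CPM, as CCT7 was at 460.4, 463 and 283 CPM. CCT6A may share reads with its pseudogene copies, as may HSPA8, HSP90AB1, HSPD1 and HSPE1 with theirs.

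Counts of the 8 subunits were therefore divided differently in each library. CCT3 took 18.9% of all subunit counts in shEmpty (18.6% to 19.2%), 15.7% in shBAP1 (15.4% to 16.0%) and 21.7% in shPRAME (21.3% to 22.1%). CCT6A took 17.0%, 14.3% and 19.5% in the same order. CCT5 took 17.0% in shEmpty (16.74% to 17.25%), 17.3% in shBAP1 (16.95% to 17.58%) and 14.01% in shPRAME (13.7% to 14.32%). Unlike CCT3 and CCT6A it was lowest in shPRAME, while its shEmpty and shBAP1 intervals overlapped. Since shares are parts of a whole, a larger share of some subunits lowers that of others. These shares do not depend on the scaling. They are shares of RNA counts not divided by length, and exon lengths of the 7 members ran from 2042 bases (CCT7) to 4032 (CCT5). They are therefore no measure of the protein, whose subunits are known to be present in equal numbers in the assembled chamber.

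**Figure D5:**
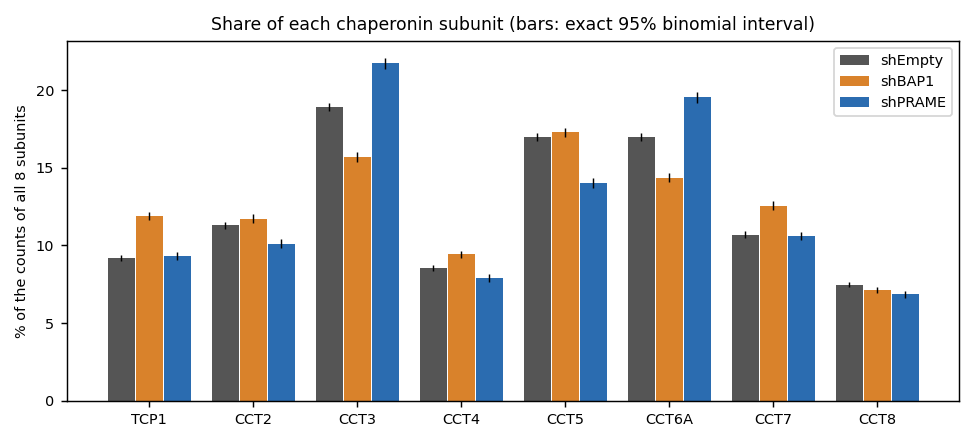
Percent of the counts of all 8 chaperonin subunits (y axis) taken by each subunit (x axis) in each library, with exact 95% binomial intervals as bars. CCT3 and CCT6A have their highest share in shPRAME (21.7% and 19.5%) and their lowest in shBAP1, and CCT5 has its lowest in shPRAME (14.01%).

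Among measured members outside the DNAJ families a small heat shock protein had the largest upward ratio to shEmpty. HSPB8 (Hsp22), which with BAG3 steers misfolded proteins to autophagy, had 68 counts in shEmpty, 378 in shBAP1 and 446 in shPRAME, or 3.63, 25.5 and 24.4 CPM. Both hairpin libraries lay far above the control, by 7.02-fold in shBAP1 (5.41 to 9.22) and 6.72-fold in shPRAME (5.20 to 8.81). BAG3 itself was at 83.4, 59.1 and 86.1 CPM and passed in neither direction. The small heat shock protein CRYAB (alpha-B crystallin), which the rule does not reach, had 16, 110 and 115 counts and was also higher, by 8.68-fold in shBAP1 (5.11 to 15.7) and 7.37-fold in shPRAME (4.35 to 13.3). CRYAB reached the count minimum only through the hairpin libraries, so it had to differ.

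HSPB1 (Hsp27), the abundant small heat shock protein of these cells, lay on opposite sides of the control in the hairpin libraries. Its counts were 4616 in shEmpty, 2237 in shBAP1 and 7171 in shPRAME, or 246, 151 and 392 CPM. The shPRAME library was 2.60-fold above the shBAP1 library (2.48 to 2.73), with the control between them at log2 distances of 0.67 and -0.71. HSPB11, an intraflagellar transport subunit named with this family, was at 30.1, 19.7 and 15.4 CPM. The remaining HSPB genes are known from muscle, heart or testis and were at the edge of detection. HSPB2 had no count in any library, which allows up to 3 counts, or 0.160 CPM in shEmpty, 0.202 in shBAP1 and 0.164 in shPRAME. HSPB3 had 0, 21 and 1 counts, HSPB6 9, 6 and 12, HSPB7 0, 4 and 2, and HSPB9 4, 4 and 1. Of these only HSPB3 had more than 12 counts in a library.

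Among the type I and II DNAJ genes, many of which work with cytosolic Hsp70, most differences were below 2-fold. DNAJA1 was at 260 CPM in shEmpty, 216 in shBAP1 and 176 in shPRAME, and DNAJB1 (Hsp40), the main partner of stress-inducible Hsp70, at 151, 113 and 91.5 CPM. Their log2 ratios in shPRAME were -0.56 and -0.73. DNAJA2 (1780, 1546 and 2203 counts), DNAJB6 (140, 179 and 187 CPM), which holds back protein aggregation, and DNAJB4 (16.1, 19.1 and 25.7 CPM) had ratios above 0 in both hairpin libraries. DNAJB2, DNAJB12 and DNAJB14 passed in no comparison with TMM scaling, DNAJB14 coming closest at a direct log2 ratio of -0.97. DNAJB5, a close relative of DNAJB1, had 49, 54 and 137 counts and was 2.87-fold higher in shPRAME than in shEmpty (2.05 to 4.06). Below that minimum DNAJA4 had 7, 8 and 7 counts, DNAJB7 34, 39 and 18, DNAJB13 4, 0 and 3, the pseudogene DNAJB3 3, 0 and 0, and DNAJB8 0, 0 and 1.

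The DNAJC genes share little beyond the J domain. DNAJC12, a cochaperone of the aromatic amino acid hydroxylases, had 15 counts in shEmpty, 111 in shBAP1 and 97 in shPRAME, or 0.801, 7.48 and 5.31 CPM. DNAJC22, a membrane J protein, had 23, 178 and 115 counts, or 1.23, 12.0 and 6.29 CPM. Both had under 50 counts in the control and reached the count minimum through the hairpin libraries, so that they had to differ. DNAJC12 was 9.34-fold higher in shBAP1 (5.43 to 17.3) and 6.63-fold higher in shPRAME (3.83 to 12.3), and DNAJC22 9.77-fold (6.31 to 15.8) and 5.12-fold (3.25 to 8.41).

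DNAJC9, a nuclear histone chaperone, was the lowest measured member in shPRAME by ratio. It had 1159 counts in shEmpty, 587 in shBAP1 and 436 in shPRAME, or 61.9, 39.5 and 23.9 CPM. It was 2.59-fold lower in shPRAME (2.32 to 2.90), and its log2 ratio in shBAP1 was -0.65. Proliferation genes stood in the same order, MKI67 at 787 CPM in shEmpty, 405 in shBAP1 and 242 in shPRAME and PCNA at 208, 175 and 61.6 CPM. The 6 listed proliferation genes summed to 2290, 1302 and 876 CPM. Of these 5 were lower in shPRAME and 1 in shBAP1, beside 9.09% and 8.57% of all measured genes. The part of proliferation in the chaperone ratios was not tested.

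J proteins of the endoplasmic reticulum had ratios on both sides of 0. DNAJC1 (ERj1), a membrane protein at the ribosome exit, was at 25.7 CPM in shEmpty, 56.9 in shBAP1 and 53.0 in shPRAME, 2.21-fold (1.97 to 2.48) and 2.06-fold (1.85 to 2.30) higher than the control. DNAJC18 was at 14.5, 13.4 and 35.0 CPM, high in shPRAME alone by 2.41-fold (2.09 to 2.79). DNAJC25 was at 11.3, 18.3 and 8.15 CPM, and its shPRAME level was 2.25-fold lower than that of shBAP1 (1.83 to 2.76). DNAJB11 (ERdj3), a cofactor of the lumenal Hsp70, was at 141, 110 and 86.2 CPM, and DNAJC3 (p58IPK) at 163, 184 and 105 CPM. DNAJC10 (ERdj5), a disulfide reductase, was at 221, 148 and 229 CPM. Of the 9 members of this list 2 were higher in shPRAME and 1 in shBAP1, beside 10.2% and 5.53% of all measured genes, with medians of -0.47 and -0.12. The lumenal chaperones left out of the rule were HSPA5 (BiP), at 1103, 906 and 926 CPM, and HSP90B1 (GRP94), at 2474, 1728 and 2414 CPM. DNAJB9 (ERdj4) was 2.31-fold higher in shPRAME (2.03 to 2.64).

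Further DNAJC genes have single tasks. DNAJC4 was at 10.1, 9.23 and 20.0 CPM, and at a log2 ratio of 0.99 in shPRAME it lay just under the limit, which it passed with total-count, upper-quartile or DESeq2 scaling. DNAJC13, an endosomal protein, was at 229, 175 and 166 CPM, and DNAJC21, a factor of ribosome maturation, at 57.5, 59.5 and 31.5 CPM. DNAJC6 (auxilin), which uncoats clathrin vesicles, was at 51.9, 48.6 and 70.8 CPM, and DNAJC5, the cysteine string protein, at 138, 122 and 111 CPM. DNAJC24, an enzyme cofactor of diphthamide synthesis, was at 17.3, 25.1 and 19.6 CPM. None of these passed against shEmpty. The other measured DNAJC genes (DNAJC7, DNAJC8, DNAJC14, DNAJC16, DNAJC17, DNAJC27 and DNAJC30) passed in no comparison, and DNAJC28 had 11, 12 and 19 counts.

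The 12 textbook targets of HSF1 among the members were HSPA1A, HSPA6, HSPA8, HSPA4L, HSPH1, HSP90AA1, HSP90AB1, HSPB1, HSPD1, HSPE1, DNAJA1 and DNAJB1. In shPRAME 4 were lower (HSPD1, HSPE1, HSPA8 and HSPA4L), 0 higher and 8 passed neither way (median -0.76), beside 9.09% lower and 10.2% higher among all measured genes (median -0.06). HSPB1 and HSPA6 were the 2 with a ratio above 0. In shBAP1 none of the 12 passed in either direction (median -0.34), beside 8.57% lower and 5.53% higher among all genes, and HSP90AB1, HSPA4L and HSPD1 had ratios above 0, as did HSPA8 and HSPE1 with scaling by total count. HSF1 itself was at 101 CPM in shEmpty, 65.1 in shBAP1 and 119 in shPRAME, lowest in shBAP1. HSF4 had 119, 161 and 255 counts and was 2.20-fold higher in shPRAME (1.76 to 2.75), and HSF2 was at 14.3, 19.1 and 19.1 CPM.

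HSF1 binds the heat shock element, in which GAA and its reverse complement TTC alternate with any 2 bases between them. Promoter windows of RefSeq (GRCh38.p14, 250 bases before to 50 after a start) were at hand for 65 members and searched for 3 such units in a row, starting with either unit and so on both strands. 7 of the 65 (10.8%) held one, beside 0.608% of all 27305 genes in the table. The shorter form of 2 units, GAA then any 2 bases then TTC, which every 3-unit element includes, occurred in 17 members (26.2%) beside 8.21%. The 3-unit elements upstream of a start are shown so that the members holding one can be set beside their ratios. Of the 12 listed targets 6 held one, and DNAJB6 held one without being on the list. Each is printed with the element in capitals and the flanks in lower case, 5′ to 3′ on the gene's strand. Positions of the first element base are counted from the start, with minus for bases before it.

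HSPA8, chr11:123062346-123062374, minus strand, element from -230: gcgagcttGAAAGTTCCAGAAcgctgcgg
HSPA8, chr11:123062171-123062199, minus strand, element from -55: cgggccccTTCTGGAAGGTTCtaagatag
HSPD1, chr2:197500062-197500090, minus strand, element from -245 of the inner start: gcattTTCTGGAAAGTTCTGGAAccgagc
HSP90AA1, chr14:102087112-102087140, minus strand, element from -88: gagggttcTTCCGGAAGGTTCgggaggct
HSP90AB1, chr6:44247770-44247798, plus strand, element from -165: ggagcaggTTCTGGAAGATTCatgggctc
HSP90AB1, chr6:44247823-44247851, plus strand, element from -112: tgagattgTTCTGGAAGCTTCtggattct
HSPA6, chr1:161524458-161524486, plus strand, element from -74: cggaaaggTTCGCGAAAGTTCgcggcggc
DNAJB6, chr7:157336865-157336893, plus strand, element from -131: agagccgaGAACCTTCGCGAAggtggggc

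The element of HSPD1 is the longest, with 18 bases, and in GENCODE its window lies within both HSPD1 and HSPE1 and in an exon of HSPE1. The windows of HSPA8 nearer the start and of HSP90AA1 overlap exons of other transcripts of those genes, and the element of DNAJA1 begins at base 4 of its transcript. The 7 genes with an element did not move together. In shPRAME their log2 ratios were -1.29 (HSPD1), -1.15 (HSPA8), -0.56 (DNAJA1), -0.42 (HSP90AB1), -0.41 (HSP90AA1), 0.42 (DNAJB6) and 0.66 (HSPA6). In shBAP1 they ran from -0.63 (HSP90AA1) to 0.36 (DNAJB6). HSPB8, HSPB1, HSPA1A, DNAJB1, CCT2, DNAJC6, DNAJA4, DNAJB7, HSPA1L and HSPB6 held the shorter form alone. Among the listed targets HSPA4L, HSPE1 and HSPH1 held neither form in their windows. A match in these letters is a description and says nothing of binding.

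Partners of these chaperones outside the rule were read from lists chosen with earlier results of these data known. Of their 52 genes 50 were measured. In shPRAME 5 were higher and 1 lower (median -0.13), beside 10.2% and 9.09% of all measured genes. In shBAP1 2 were higher and 0 lower (median 0.02), beside 5.53% and 8.57%. The 13 cochaperones of Hsp90 had a median of -0.44 in shPRAME and -0.16 in shBAP1. PTGES3 (p23), which steadies the closed Hsp90 dimer, was at 621 CPM in shEmpty, 407 in shBAP1 and 310.3 in shPRAME, which was lower and at the 2-fold limit (interval 1.94 to 2.07). That call ended under each other scaling, at log2 ratios of -0.96 (total count), -0.91 (upper quartile) and -0.98 (DESeq2), which left no partner lower. STIP1 (HOP), which links Hsp70 to Hsp90, was at 507, 311.5 and 373 CPM, so that like HSP90AA1 it had its lowest level in shBAP1. CDC37, which brings kinases to Hsp90, was at 208, 295 and 206 CPM, highest in shBAP1.

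Of the 13 Hsp70 cofactors 1 was higher in shPRAME, beside 10.2% of all measured genes. None of the 13 passed in shBAP1, beside 14.1%. The higher cofactor was SIL1, the exchange factor of the lumenal Hsp70, at 42.3, 38.5 and 85.9 CPM and 2.03-fold higher (1.86 to 2.22). BAG4 stood just under the limit in shBAP1, at 42.5, 21.4 and 54.0 CPM. Among the prefoldin subunits, which hand actin and tubulin to TRiC, PFDN6 was at 24.9 CPM in shEmpty, 71.8 in shBAP1 and 25.6 in shPRAME, 2.88-fold higher in shBAP1 (2.58 to 3.22). PFDN5 (103, 129 and 63.6 CPM) and VBP1 (89.4, 48.8 and 57.7 CPM) passed in neither comparison with shEmpty, and the prefoldin subunits shared no pattern. SERPINH1 (Hsp47), the collagen chaperone, was at 55.0, 95.3 and 346 CPM and was 6.29-fold higher in shPRAME (5.89 to 6.72). TRAP1, the mitochondrial Hsp90, was at 150, 177 and 144 CPM and did not follow HSPD1.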

How the data were processed

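RNA was measured in 3 libraries of A375SM cells, 1 per group, from which purified messenger RNA was sequenced as paired reads of 100 bases, per the labels. The values are whole-number read counts per gene, as deposited by the authors. FastQC, TopHat, Cufflinks and edgeR with hg19 (GRCh37) are named in the submitters' processing notes. The kit marks strand, per the labels. No source used here gives the counting tool, the annotation or whether strand was used, so overlapping and near-identical genes are uncertain.

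TMM factors came from edgeR 4.0.16 in R 4.3.3. Log2 ratios took no pseudocount, with exact conditional binomial 95% intervals (scipy 1.17.1, Python 3.11.15). A count of 0 was set to a floor of 3 counts, and no ratio was formed where both counts were 3 or fewer. The procedure was tested on simulated counts that held counting error only, so that test does not reach variation between libraries. 3 comparisons were made. The members, classes and lists were chosen with earlier results of these data known. Described with full values were the 32 members called in a comparison, among the 2 of highest control CPM in their class, or known HSF1 targets, and other members by their levels. Lengths and promoters matched by symbol (74 and 65 members). Tried instead were scaling by total count, by upper quartile or by DESeq2 (1.42.0), count minima of 10, 200 and 2000, 1.5-fold and 3-fold limits, an interval wholly past 2-fold, the mean for the median, and a pseudocount of 1 CPM.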

Additional observations from a re-analysis of the deposited data

How the results depend on the processing

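Each group was 1 library, so no replicate could be left out. No paired analysis was possible because the groups have 1 library each. With a fold limit of 1.5 the calls numbered 35 in shPRAME, 13 in shBAP1 and 28 in the direct comparison, or 57.4%, 21.3% and 45.9% of members beside 41.0%, 30.5% and 48.1% of all measured genes. With a limit of 3 they numbered 3 in shPRAME (4.92%, beside 8.29%) and 0 in the direct comparison (beside 11.4%). With the whole interval beyond 2-fold the calls numbered 9 in shPRAME (14.8%, beside 13.5%) and 3 in shBAP1 (4.92%, beside 9.19%). The direct comparison then had 7 in place of 12, a count not set against all genes here. A count minimum of 200 left 2 calls in shBAP1 (3.77%, beside 10.5%), since fewer genes were tested. The minimum of 2000, chosen after seeing the data, gave 3, 0 and 4 calls in the order shPRAME, shBAP1 and direct. These were 12.5%, 0% and 16.7% of members. Of all genes at that minimum 16.0% were called in shPRAME and 9.97% in shBAP1. In the direct comparison 275 of 2087 were higher and 190 lower. Member medians at that minimum were -0.67, -0.19 and -0.50, beside -0.20, -0.11 and -0.105 for all such genes. The mean log2 ratio was -0.13 in shPRAME and 0.073 in shBAP1, both above the medians, and the shBAP1 sign turned. Total-count scaling moved the direct median to -0.41. The remaining alternatives moved no count of calls by over 1.5 times.

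Of the values of the 32 named members under other scalings and the pseudocount, 4 gained a call, 4 lost one and 0 reversed. DNAJC4 gained one in shPRAME under each of the 3 other scalings, and DNAJC22 in the direct comparison with total counts, where DNAJB14 and DNAJC11 also did. DNAJB5 (log2 ratio 0.96 with total counts, 0.87 with the pseudocount) and HSPA6 (0.998 and 0.88) lost theirs in the direct comparison. Under total-count scaling 9 members changed sign in shBAP1, HSPA8, HSPA4, HSPE1 and CCT4 among them. Depth limits the members under the count minimum, whose ratios rest on few counts.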
